A study of Mus musculus with 549 samples.

Results

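Gene expression was compared between cartilage and cortical bone of the mouse tibia before any mechanical loading. The part of the series described here consists of the libraries from vehicle-pretreated, unloaded mice in the cartilage and cortical bone tables, both limbs included, and it holds 22 of the 549 samples of the series. The mice were male C57BL/6J, injected subcutaneously with saline 5 days per week for 8 weeks from the age of 18 weeks, and killed at 26 weeks without loading. The wider study gave other mice parathyroid hormone (PTH 1-34) in place of saline and then loaded the left tibia for 1, 2 or 6 weeks, with alendronate or vehicle. Cartilage gave 15 libraries from 8 mice, 7 of left and 8 of right limbs. Cortical bone gave 7 libraries from 4 mice, 4 of left and 3 of right limbs. A further cartilage library was left out because it held 52539 reads, below the minimum of 100000. To repeat the comparison without shared samples, the contralateral right limbs of vehicle-treated mice were used, 7 cartilage and 6 cortical libraries at 27 weeks of age (after 1 week of loading of the left limb) and 8 cartilage and 9 cortical libraries at 28 weeks (after 2 weeks). Each library came from 1 limb.

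The articular cartilage of the tibial plateau is a thin tissue of chondrocytes in a matrix of type II collagen and aggrecan, with lubricin at its surface, and it sits on calcified cartilage and a bone plate. Cortical bone of the metaphysis is mineralised type I collagen made by osteoblasts, maintained by buried osteocytes, which secrete the Wnt inhibitor sclerostin, and resorbed by osteoclasts. A dissected piece of either tissue also carries cells of its surroundings, such as synovium, ligament, muscle, vessels and residual marrow, and the marrow had been removed from the bone before it was frozen. The comparison answers which transcripts separate the joint tissue from the bone beneath it in adult mice that received no drug.

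The libraries were made with a 3' tag kit, so each read stands for the end of a transcript. Reads per library ran from 636661 to 2032723 in cartilage and from 1331617 to 2417292 in cortical bone, and 11934 to 13828 genes were detected per cartilage library against 12702 to 14123 per cortical library. Levels are given as CPM, the reads of a gene per 1000000 reads of its library. Differences are on the log2(CPM + 1) scale, cartilage minus cortical bone, with a standard error and a Benjamini-Hochberg adjusted p-value from limma. Cartilage had been stored in RNAlater and bone snap-frozen, and the tissues were deposited in separate tables. Tissue, stabilisation and any difference in library preparation therefore cannot be told apart. In bulk tissue, fewer cells of a type and less RNA per cell cannot be told apart either.

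The transcripts higher in cartilage were headed by genes of the joint surface and the cartilage matrix, and those lower in cartilage by genes of skeletal muscle, osteoblasts and osteoclasts. Of 13541 genes tested, 830 were higher in cartilage (6.13%) and 1271 were lower (9.39%) at an adjusted p under 0.05, 15.5% in all, and the median difference over all genes was -0.03. In 39 genes (0.288%) every cartilage library lay above every cortical library, and in 97 genes (0.716%) every cartilage library lay below. A fit of the 12 libraries whose replicate numbers occur in both tissues, with the number as a block (the replicate block fit), gave 440 higher and 558 lower, and the same libraries without that block gave 402 and 595. The calls of single genes given below as lost in the replicate block fit were also lost in these libraries without the block. The split depended on the ribosomal RNA transcript Rn45s, whose median was 114638 CPM in cartilage against 63126 CPM in cortical bone (difference 0.96, adjusted p = 0.363), because with its reads left out of the totals 1045 genes were higher and 1030 lower. Without mouse 1 the number of higher genes was 388, and without mouse 3 it was 543. Without mouse 4 the number of lower genes was 825.

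**Figure D1:**
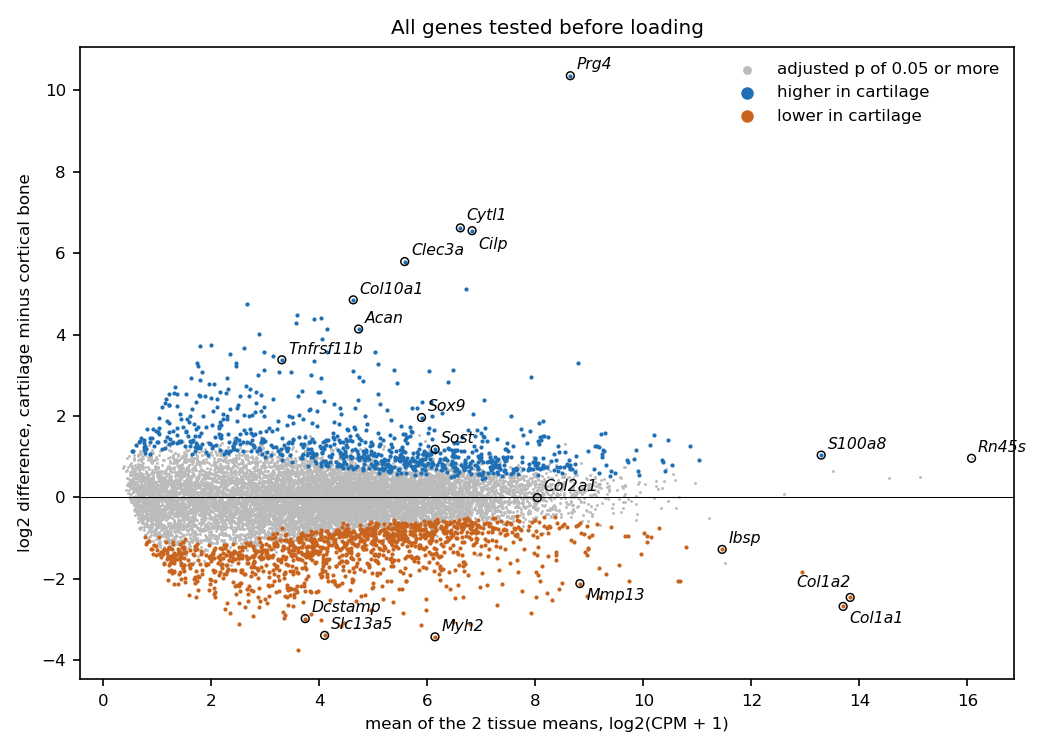
Each point is 1 of 13541 genes; the x axis is the mean of both tissue means in log2(CPM + 1) and the y axis the log2 difference, cartilage minus cortical bone. Blue points (830) were higher and orange points (1271) lower in cartilage at an adjusted p under 0.05, with Prg4 at the top (10.36) and Col2a1 at -0.01.

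The promoters of 4 of the genes that separate the tissues are shown because each belongs to 1 of the sides described below, Col10a1 and Cytl1 higher in cartilage and Bglap and Ibsp lower. The sequences are RefSeq's for GRCm38.p6, from 250 bases before to 50 after the annotated start, read 5′ to 3′ on the gene's strand. Capitals mark matches on either strand to TATAAA, the letters of a TATA box. They also mark matches, likewise on either strand, to the core recognised by RUNX factors, which was searched as TGTGGT.
Col10a1, chr10:34389731-34390030, plus strand: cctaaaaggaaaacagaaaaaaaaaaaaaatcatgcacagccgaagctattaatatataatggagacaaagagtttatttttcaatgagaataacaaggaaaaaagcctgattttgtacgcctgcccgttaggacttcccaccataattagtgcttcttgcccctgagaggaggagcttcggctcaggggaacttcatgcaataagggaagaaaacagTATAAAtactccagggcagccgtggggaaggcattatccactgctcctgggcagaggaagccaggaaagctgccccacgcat
Cytl1, chr5:37735269-37735568, plus strand: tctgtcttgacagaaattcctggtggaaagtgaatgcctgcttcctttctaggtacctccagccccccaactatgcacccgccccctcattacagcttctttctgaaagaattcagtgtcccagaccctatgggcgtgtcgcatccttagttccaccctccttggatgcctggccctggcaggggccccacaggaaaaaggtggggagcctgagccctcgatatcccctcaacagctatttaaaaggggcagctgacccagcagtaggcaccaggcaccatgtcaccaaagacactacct
Bglap, chr3:88384417-88384716, minus strand: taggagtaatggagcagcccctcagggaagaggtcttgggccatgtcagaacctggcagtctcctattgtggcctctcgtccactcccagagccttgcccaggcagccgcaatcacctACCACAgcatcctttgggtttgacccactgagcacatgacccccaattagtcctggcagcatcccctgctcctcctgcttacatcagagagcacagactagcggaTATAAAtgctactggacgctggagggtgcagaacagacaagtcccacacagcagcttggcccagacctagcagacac
Ibsp, chr5:104299037-104299336, plus strand: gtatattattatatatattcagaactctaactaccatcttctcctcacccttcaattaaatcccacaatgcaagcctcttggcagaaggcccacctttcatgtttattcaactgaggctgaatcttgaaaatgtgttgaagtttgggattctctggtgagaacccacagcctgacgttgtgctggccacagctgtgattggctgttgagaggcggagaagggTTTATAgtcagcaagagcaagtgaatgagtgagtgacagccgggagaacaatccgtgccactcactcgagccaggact
The Col10a1 promoter held a TATA box 32 bases before the start, and that of Bglap held one 27 bases before it. In Bglap a reverse-strand match to the RUNX core lay 132 bases before the start, and in Ibsp a reverse-strand TATAAA lay 28 bases before it. The Cytl1 promoter held neither motif, nor did those of Acan and Sost, which are not shown. Of all 32851 promoters in the RefSeq table, 16.8% held TGTGGT and 13.6% held TATAAA. A match to TGTGGT was found in 3 of 19 promoters of the osteoblast list, 6 of 24 of the cartilage matrix list and 2 of 12 of the articular surface list, and TATAAA in 4, 3 and 2 of them. These counts are too small to compare the lists, and no test was run on them.

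Lubricin and other surface proteins of the joint showed the widest separation. Prg4 (chromosome 1, 150449412 to 150466165, GRCm38), which encodes the boundary lubricant lubricin made by superficial chondrocytes and synovial lining cells, had 3836, 12468 and 45952 CPM as its lowest, median and highest values in cartilage, against 0, 16.9 and 22.3 CPM in cortical bone. Every cartilage library lay above every cortical library. Its difference was 10.36 ± 0.47 (adjusted p = 1.4e-16), and 10.36 was the largest among all genes tested. The cortical library at 0 CPM enters this value through the pseudocount, the 1 added to each CPM, so its size depends on that in part. Cilp, a matrix protein of the intermediate zone of cartilage that binds TGF-beta, had 334, 1016 and 3554 CPM in cartilage, against 5.79, 7.51 and 33.5 CPM in cortical bone (6.55 ± 0.40, adjusted p = 4.6e-13). Clec3a, a cartilage lectin, had 116, 264 and 1043 CPM in cartilage, against 0, 10.8 and 19.1 CPM in cortical bone (5.79 ± 0.51, adjusted p = 5.3e-09). Neither gene's groups overlapped.

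Of 15 genes of the articular surface list that were tested, 10 were higher in cartilage and 0 lower, with a median difference of 1.61 against -0.03 over all genes. The list was drawn up with these results known. Beyond those above, 7 members were higher, between 1.48 and 2.84, and Cilp2 (2.84, adjusted p = 2e-05), a relative of Cilp, was the uppermost of them. Creb5, a transcription factor that promotes Prg4 expression in articular chondrocytes, had 7, 31.3 and 202 CPM in cartilage, against 2.79, 3.31 and 15.8 CPM in cortical bone (2.62 ± 0.43, adjusted p = 8.3e-05), with overlapping groups. Thbs4, a thrombospondin of tendon and cartilage (1.61 ± 0.42, adjusted p = 0.00789), did not pass the test in the replicate block fit (1.82, adjusted p = 0.0534). The other 5 genes had differences between 0.15 and 0.91 and did not pass the test.

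The matrix genes of cartilage were divided, with proteoglycans and adaptor proteins higher and the fibrillar collagens not. Of 23 tested genes of the cartilage matrix list, 12 were higher in cartilage and 2 lower, with a median difference of 1.83. Acan, encoding the large proteoglycan aggrecan, had 31.1, 120 and 358 CPM in cartilage, against 0, 3.48 and 33.8 CPM in cortical bone (4.14 ± 0.53, adjusted p = 2e-06). The highest cortical library reached past the lowest cartilage library. Hapln1, the link protein that ties aggrecan to hyaluronan, had 19.7, 35.9 and 77.9 CPM in cartilage, against 0, 9.05 and 17 CPM in cortical bone (2.58 ± 0.44, adjusted p = 0.00012), with no overlap. Cytl1, a secreted protein of chondrocytes, had 276, 885 and 3381 CPM in cartilage, against 0, 6.96 and 132 CPM in cortical bone (6.62 ± 0.69, adjusted p = 5.1e-08). The cartilage libraries again lay wholly above.

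Comp, a pentameric adaptor between collagens, had 72.3, 250 and 921 CPM in cartilage, against 12.4, 17.7 and 185 CPM in cortical bone (3.14 ± 0.41, adjusted p = 3e-06), with overlap from the cortical side. Chad and Prelp, leucine-rich proteins that bind collagen and cells, were higher in cartilage by 2.96 ± 0.54 (adjusted p = 0.00026) and 3.10 ± 0.41 (adjusted p = 3.4e-06). Summed to 1 library per mouse and tissue in edgeR, Chad did not pass the test (1.22, adjusted p = 0.15). The other 4 higher members, Cilp2 and Ucma among them, lay between 1.83 and 2.84. In summed level the list ran from 6088 to 55166 CPM (median 15645) in cartilage and from 1235 to 4708 CPM (median 2122) in cortical bone. Prg4 is a member of this list and of the articular surface list and makes up most of the sum in cartilage. Without Prg4 the matrix sums overlapped, at 2252 to 11895 CPM (median 4409) in cartilage and 1212 to 4691 CPM (median 2104) in cortical bone, and the articular surface sums did not, at 978 to 8083 CPM in cartilage and 346 to 649 CPM in cortical bone.

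Col2a1, the main collagen of hyaline cartilage (chromosome 15, 97975602 to 98004695, GRCm38), did not separate the tissues. It had 126, 271 and 672 CPM in cartilage, against 167, 267 and 399 CPM in cortical bone, a difference of -0.01 ± 0.26 (adjusted p = 0.992). The cortical range lay wholly inside that of cartilage. Col9a1, whose product coats type II fibrils, had 0, 1.37 and 51.2 CPM in cartilage, against 0, 1.77 and 39.9 CPM in cortical bone (-0.02, adjusted p = 0.987). Col11a1, a fibril-nucleating collagen also made in bone, was lower in cartilage, at 158, 320 and 767 CPM, against 690, 1258 and 2565 CPM in cortical bone (-1.89 ± 0.25, adjusted p = 3.2e-06). Its partner chain Col11a2 was lower by 1.09 on the log2 scale, and did not pass the test in the replicate block fit (-0.87, adjusted p = 0.0982) or without mouse 4 (-0.94, adjusted p = 0.0507). Of the defining genes of cartilage, those of lubricin and aggrecan were higher in the libraries labelled cartilage, and that of type II collagen was detected in every library of both tissues.

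Col10a1, the collagen of hypertrophic and calcified cartilage, was one of the genes farthest to the cartilage side. It had 31.4, 167 and 552 CPM in cartilage, against 0, 4.87 and 16.3 CPM in cortical bone (4.85 ± 0.58, adjusted p = 5.8e-07), and the groups did not overlap. Among the 13 genes of the growth plate hypertrophy list, 2 were higher in cartilage (Col10a1 and Ucma) and 5 lower (Mmp13, Pth1r, Ibsp and Slc13a5 among them), with a median difference of -0.68, and 6 did not pass the test. Ihh, the hedgehog ligand of prehypertrophic chondrocytes, had at most 2.79 CPM in cartilage and 0.572 CPM in cortical bone (0.69, adjusted p = 0.186).

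**Figure D2:**
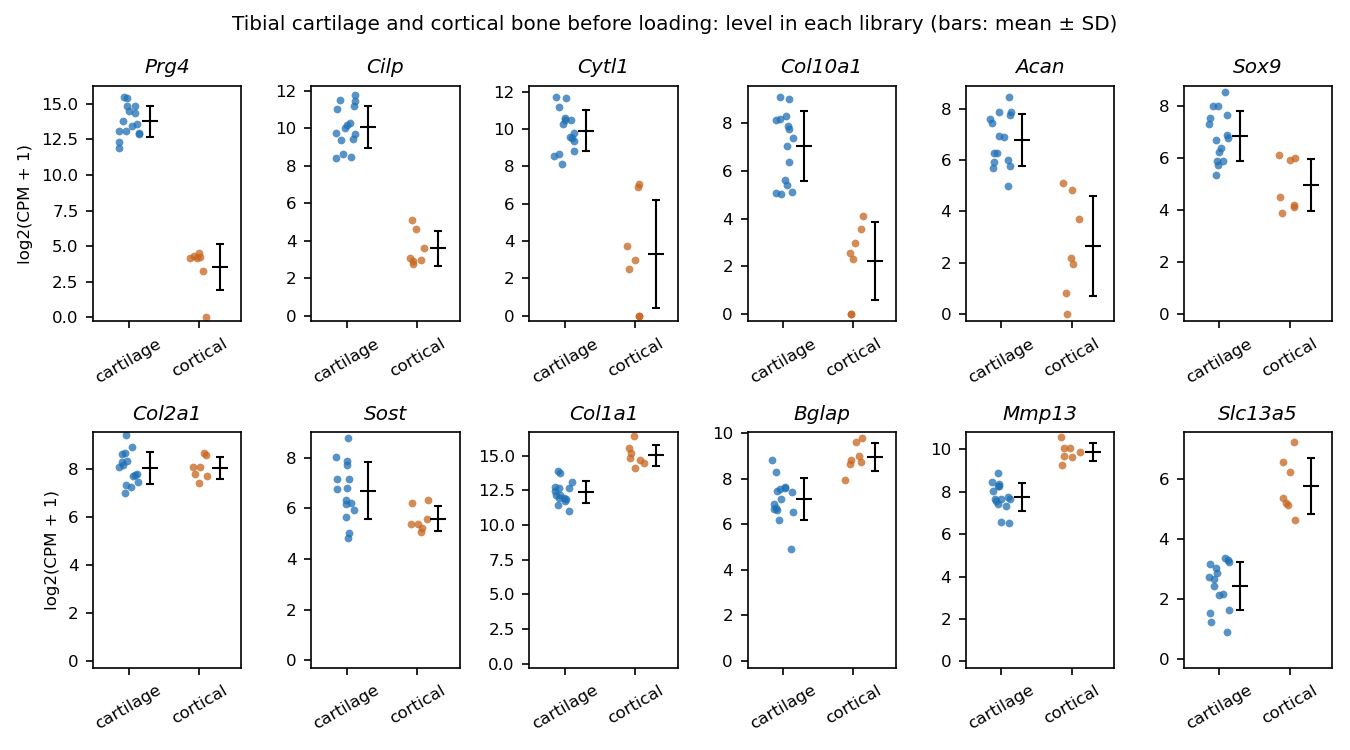
The level of 12 genes in log2(CPM + 1) in each of 15 cartilage (left, blue) and 7 cortical (right, orange) libraries before loading, with the mean and SD beside the points. Prg4, Cilp, Cytl1 and Col10a1 are higher in every cartilage library, Col1a1, Mmp13 and Slc13a5 are lower in every one, and the Col2a1 ranges lie on each other.

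Osteoblast genes were lower in cartilage nearly throughout. Of 23 tested genes of the osteoblast list, 17 were lower in cartilage and 1 was higher, with a median difference of -1.69. Col1a1 (chromosome 11, 94936224 to 94953042, GRCm38), a chain of type I collagen, had 2076, 4659 and 15537 CPM in cartilage, against 18034, 28471 and 86312 CPM in cortical bone (-2.68 ± 0.37, adjusted p = 8.7e-06). All cartilage libraries lay below all cortical ones. Its partner Col1a2 had 3510, 6281 and 12358 CPM in cartilage, against 9842, 38151 and 90998 CPM in cortical bone (-2.46 ± 0.35, adjusted p = 1.4e-05), with overlap at the edges. Sparc, which binds collagen and calcium in bone, was lower by 1.82 on the log2 scale (adjusted p = 0.00017), and missed the threshold in same-limb pairs (-1.33, adjusted p = 0.0918).

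Of the 15 genes of the mineralisation list, 6 were lower in cartilage and 1 was higher (median -0.63). Smpd3, a sphingomyelinase required for bone mineralisation, had 20.6, 39.4 and 65.4 CPM in cartilage, against 162, 181 and 352 CPM in cortical bone (-2.48 ± 0.23, adjusted p = 1.1e-08). Creb3l1, which drives type I collagen transcription in osteoblasts, had 19, 45.1 and 81.3 CPM in cartilage, against 168, 237 and 362 CPM in cortical bone (-2.45 ± 0.24, adjusted p = 1.7e-08). For both genes the tissues did not overlap, and the same held for Ifitm5, a bone-restricted membrane protein (-2.54 ± 0.33, adjusted p = 2.4e-06). Slc13a5, a citrate transporter of osteoblasts, had 0.875, 5.38 and 9.42 CPM in cartilage, against 24, 40.8 and 150 CPM in cortical bone (-3.39 ± 0.37, adjusted p = 1.6e-07), again without overlap.

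Bglap, encoding osteocalcin, had 28.9, 138 and 450 CPM in cartilage, against 247, 455 and 881 CPM in cortical bone (-1.84 ± 0.33, adjusted p = 0.00028), and the near-identical neighbour Bglap2 differed by -1.72 (adjusted p = 0.00212). Reads of these copies could be split by the counting, so their separate values are uncertain. Ibsp, bone sialoprotein, had 1171, 1859 and 3024 CPM in cartilage, against 2657, 4579 and 8326 CPM in cortical bone (-1.28 ± 0.24, adjusted p = 0.00036). The highest cartilage libraries reached past the lowest cortical one in Bglap and in Ibsp. Within same-limb pairs Ibsp did not pass the test (-1.13, adjusted p = 0.0518).

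Among the transcription factors of the osteoblast lineage, Sp7 (osterix) had 0, 1.37 and 6.4 CPM in cartilage, against 4.18, 8.27 and 30.8 CPM in cortical bone (-2.11 ± 0.44, adjusted p = 0.00118), with overlap. Runx2, the factor above Sp7, differed by -0.68 (adjusted p = 0.0788), and Alpl, tissue-nonspecific alkaline phosphatase, by -0.63 (adjusted p = 0.0602). Omd, osteomodulin, was the 1 member higher in cartilage (0.93 ± 0.31, adjusted p = 0.0394), and it did not pass the test without mouse 1 (0.85), mouse 3 (0.76) or mouse 4 (0.85). The summed osteoblast list ran from 11969 to 38986 CPM (median 17436) in cartilage and from 67956 to 157515 CPM (median 83292) in cortical bone, without overlap. Col1a1 and Col1a2 carry most of this sum, and without them the sums overlapped, at 5038 to 12958 CPM in cartilage and 11771 to 44370 CPM in cortical bone.

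Osteocyte genes did not move as 1 group. Of 13 tested, 1 was higher in cartilage and 5 were lower, with a median of -0.46. Sost (chromosome 11, 101962458 to 101967015, GRCm38), which encodes sclerostin, had 27.1, 109 and 443 CPM in cartilage, against 32.7, 40.6 and 78.8 CPM in cortical bone (1.18 ± 0.36, adjusted p = 0.0228). The cortical range lay inside that of cartilage. The Sost call was lost without mouse 2 (0.94, adjusted p = 0.133), without mouse 4 (1.08, adjusted p = 0.101), without mouse 7 (1.00, adjusted p = 0.0543), with 1 mean per mouse and tissue (0.99, adjusted p = 0.0812) and in right limbs (0.76, adjusted p = 0.472), and all of these kept the direction. Phex, an endopeptidase that restrains FGF23 (-1.38 ± 0.26, adjusted p = 0.00044), Fam20c, the kinase of secreted phosphoproteins (-1.68 ± 0.37, adjusted p = 0.00181), Gja1, connexin 43 (-1.67, adjusted p = 5.5e-06) and Dtna (-2.05, adjusted p = 3.6e-05) were lower in cartilage. Fam20c missed the threshold in same-limb pairs (-1.45, adjusted p = 0.0648). Dmp1, a matrix phosphoprotein of osteocytes, was lower by 0.94 on the log2 scale (adjusted p = 0.0146), but not in the replicate block fit (-0.90, adjusted p = 0.147), without mouse 3 (-0.84, adjusted p = 0.0551) or without mouse 4 (-0.81, adjusted p = 0.0977). Mepe, a phosphoglycoprotein of the bone matrix, had a difference of -0.46 (adjusted p = 0.3).

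Osteoclast genes were lower in cartilage in 11 of 16 tested and higher in 0, with a median of -1.18. Dcstamp, required for fusion of osteoclast precursors, had 0.706, 3.78 and 9.56 CPM in cartilage, against 24, 34.9 and 59.1 CPM in cortical bone (-2.98 ± 0.34, adjusted p = 2.6e-07). No cartilage library reached a cortical one. Itgb3, an integrin subunit of osteoclasts and platelets (-2.05 ± 0.20, adjusted p = 1.7e-08), and Ckb, brain-type creatine kinase (-2.13 ± 0.23, adjusted p = 1.3e-07), likewise did not overlap. Acp5, tartrate-resistant acid phosphatase, had 176, 315 and 542 CPM in cartilage, against 403, 673 and 1514 CPM in cortical bone (-1.27 ± 0.24, adjusted p = 0.00037), with overlap, and it missed the threshold in same-limb pairs (-1.07, adjusted p = 0.0666). Ctsk, cathepsin K, was lower by 0.92 on the log2 scale (adjusted p = 0.0417) and lost this call without mouse 2 (-0.55, adjusted p = 0.298), mouse 4 (-0.97, adjusted p = 0.0976) or mouse 8 (-0.83, adjusted p = 0.0814).

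The regulators of osteoclast formation were split. Tnfrsf11b, encoding the decoy receptor osteoprotegerin, was higher in cartilage, at 11.3, 24.2 and 101 CPM, against 0.696, 2.25 and 6.5 CPM in cortical bone (3.38 ± 0.35, adjusted p = 5.1e-08), with no overlap. Tnfsf11, the osteoclast-inducing ligand RANKL that osteoprotegerin binds, had 0, 0.706 and 2.73 CPM in cartilage, against 0, 0.609 and 5.15 CPM in cortical bone (-0.15, adjusted p = 0.835), near the level of 1 read in these libraries. The macrophage growth factor receptor Csf1r was lower in cartilage by 1.43 on the log2 scale (adjusted p = 0.00064). Its ligands Csf1 (-1.02, adjusted p = 0.0056) and Il34 (-1.56, adjusted p = 0.00734) were lower as well, but neither passed in the replicate block fit (Csf1 -0.81, adjusted p = 0.151; Il34 -1.24, adjusted p = 0.213). Csf1 also missed the threshold without mouse 2 (-0.70) and mouse 4 (-0.89), and Il34 without mouse 1 (-0.94).

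Of 25 skeletal transcription factors tested, 6 were higher in cartilage and 7 lower (3 in the replicate block fit), with a median of -0.10. Sox9, which specifies chondrocytes, had 39.3, 107 and 367 CPM in cartilage, against 13.6, 21.3 and 66.9 CPM in cortical bone (1.96 ± 0.37, adjusted p = 0.00038), with overlap. Sox5, which acts with Sox9 on matrix genes, had 18.4, 42.4 and 111 CPM in cartilage, against 1.14, 4.26 and 11.8 CPM in cortical bone (3.02 ± 0.35, adjusted p = 4.5e-07), without overlap. Barx1, a homeobox factor of joint-forming mesenchyme, was higher by 3.08 ± 0.49 (adjusted p = 5.4e-05), and 0 CPM was its median in cortical bone against 8.36 CPM in cartilage.

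Metalloproteinases and their inhibitors were lower in cartilage in 13 of 21 and higher in 1, with a median of -1.02. Mmp13 (chromosome 9, 7272514 to 7283331, GRCm38), the collagenase of type II collagen and of bone remodelling, had 91, 203 and 477 CPM in cartilage, against 617, 942 and 1542 CPM in cortical bone (-2.12 ± 0.25, adjusted p = 6.6e-07). The groups did not overlap. Mmp16 (-2.06), Mmp23 (-2.85) and Mmp14 (-1.02), the membrane-bound members, were also lower, but Mmp14 missed the threshold in same-limb pairs (-0.89, adjusted p = 0.0573). Mmp3, stromelysin, was the member higher in cartilage, with 0, 6.89 and 17.8 CPM there, against a single read among all 7 cortical libraries, so its fitted difference of 2.55 (adjusted p = 0.00058) depends on the pseudocount, and it missed the threshold in left limbs (2.30, adjusted p = 0.0526).

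Among signalling genes, some receptors and inhibitors were higher in cartilage and others lower. Pth1r, the receptor of the hormone given elsewhere in this study, had 49.8, 88.4 and 130 CPM in cartilage, against 144, 213 and 460 CPM in cortical bone (-1.45 ± 0.21, adjusted p = 2e-05), with no overlap. Hhip, a decoy and target of hedgehog ligands, had 13.4, 21.8 and 108 CPM in cartilage, against 0, 1.65 and 5.15 CPM in cortical bone (3.47 ± 0.40, adjusted p = 3.2e-07), also without overlap. The hedgehog effectors Gli1 (1.37, adjusted p = 0.0365) and Gli2 (1.34, adjusted p = 0.0434) were called higher but failed in most alternatives, such as the replicate block fit (Gli1 1.33, adjusted p = 0.206; Gli2 1.80, adjusted p = 0.0828), and each of them missed the threshold without mouse 1 (Gli1 1.16, Gli2 0.99), mouse 2 (Gli1 1.27, Gli2 1.13), mouse 4 (Gli1 1.23, Gli2 1.55) or mouse 7 (Gli1 1.22, Gli2 1.33). Gli1 also missed it without mouse 8 (1.34), and Gli2 without mouse 3 (1.29) or mouse 6 (1.41).

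In the Wnt pathway 4 of 24 tested genes were higher in cartilage and 4 lower, with a median of 0.00. The higher ones included the secreted inhibitors Frzb (2.94 ± 0.47, adjusted p = 5.8e-05) and Sfrp5 (2.27 ± 0.42, adjusted p = 0.00031) and the R-spondin receptor Lgr6 (2.55 ± 0.45, adjusted p = 0.00021). Sfrp1, another secreted inhibitor, was lower (-1.77 ± 0.33, adjusted p = 0.00037), as were the ligand Wnt5b (-1.61, adjusted p = 0.00352) and the sclerostin co-receptor Lrp4 (-1.16, adjusted p = 0.00171). In same-limb pairs Wnt5b (-1.48) and Lrp4 missed the threshold, each with an adjusted p of 0.0898, and Wnt5b also missed it without mouse 1 (-1.14). Of 19 BMP and GDF genes, 2 were higher and 4 lower, with a median of -0.36. Over all genes 6.13% were higher and 9.39% lower, and with so few genes the counts of these 2 lists are not read as a trait of them. Bmp3, which restrains bone mass in mice, had 4.1, 14.5 and 36.1 CPM in cartilage, against 43, 67.4 and 138 CPM in cortical bone (-2.21 ± 0.34, adjusted p = 3.6e-05), and Bmp1, a procollagen C-proteinase, was lower by 1.69 on the log2 scale (adjusted p = 4.8e-05). Neither overlapped. The antagonist Chrdl2 was higher by 1.95 ± 0.43 (adjusted p = 0.00191).

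Matricellular CCN genes went both ways, with Nov (2.89 ± 0.46, adjusted p = 5.2e-05) and Ctgf (2.80 ± 0.45, adjusted p = 6.3e-05) higher in cartilage and Wisp1 lower (-1.91 ± 0.26, adjusted p = 6.7e-06). Hyaluronan genes were higher in 4 of 9 tested and lower in 0, with a median of 0.99. Has1, a hyaluronan synthase, had 154 reads over the cartilage libraries, 8.76 CPM pooled, and 0 in all 7 cortical libraries. Against a floor of 3 reads over the cortical group (0.249 CPM) it was at least 35.2-fold higher, a bound that covers counting error only. Lyve1, a hyaluronan receptor of lymphatic vessels and some macrophages, had 34.1, 63.4 and 211 CPM in cartilage, against 4.14, 8.01 and 12 CPM in cortical bone (3.10 ± 0.29, adjusted p = 1.2e-08), with no overlap.

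Several genes outside these lists were among the 15 with the largest positive differences (of genes with a mean log2(CPM + 1) of at least 5 in the higher tissue). Sema3e, a secreted semaphorin (4.76 ± 0.45, adjusted p = 1.6e-08), Clec3b, tetranectin (4.48 ± 0.51, adjusted p = 2.6e-07), Dpt, the fibril-associated dermatopontin (4.42 ± 0.44, adjusted p = 2.3e-08), and Mfi2, melanotransferrin (4.39 ± 0.46, adjusted p = 5.6e-08), did not overlap between tissues. Anxa8, Sod3, Hbegf, Cdon and Angptl7 lay between 3.56 and 4.28, and only Angptl7 of these 5 overlapped. On the other side, Cpz, a carboxypeptidase with a Wnt-binding frizzled-like domain (-3.02 ± 0.50, adjusted p = 8.3e-05), and Postn, the periosteal matrix protein periostin (-2.76 ± 0.36, adjusted p = 2.9e-06), were among the 15 lowest with muscle genes. The interstitial collagens were lower in cartilage in 6 of 13 and higher in 1, with a median of -0.60, and the higher one was Col14a1, which coats type I fibrils, at 34.8, 71.2 and 192 CPM in cartilage, against 3, 9 and 17.7 CPM in cortical bone (2.96 ± 0.32, adjusted p = 1.4e-07).

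**Figure D3:**
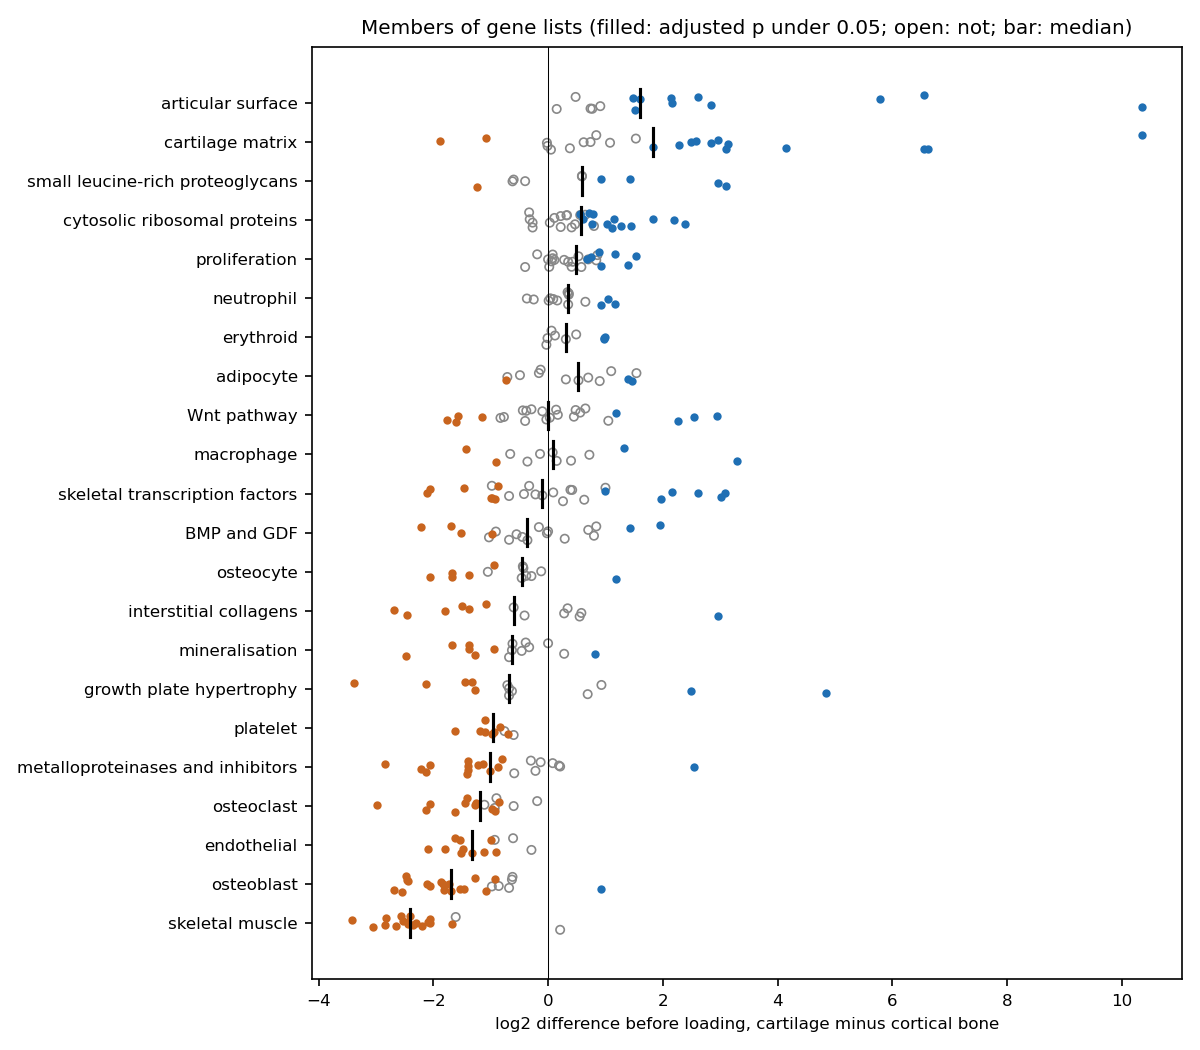
Each point is a tested gene of the list named on the y axis, placed by its log2 difference before loading (x axis, cartilage minus cortical bone), filled where the adjusted p is under 0.05, with a bar at the list's median. Medians run from 1.83 for the cartilage matrix list to -1.69 for the osteoblast list and -2.41 for the skeletal muscle list.

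Skeletal muscle genes were lower in cartilage in 17 of 19 tested and higher in 0, with a median of -2.41, and Acta1, skeletal actin, had 58.1, 231 and 2015 CPM in cartilage, against 485, 1678 and 4407 CPM in cortical bone (-2.44 ± 0.41, adjusted p = 0.00012). The summed list ran from 1577 to 76451 CPM (median 5062) in cartilage and from 7834 to 64608 CPM (median 26125) in cortical bone. The right limb of mouse 8 gave the highest cartilage value, and the next was 6790 CPM, below every cortical library. Without mouse 8 the list had 18 lower genes and a median of -2.62. Muscle content thus moved with tissue, and its part in the other differences was not tested.

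Endothelial genes were lower in cartilage in 10 of 13 and higher in 0 (median -1.33). Kdr, the VEGF receptor of endothelium, had 19.5, 35 and 54.2 CPM in cartilage, against 93.1, 131 and 167 CPM in cortical bone (-1.80 ± 0.18, adjusted p = 4e-08), and the summed list (185 to 299 CPM in cartilage, 488 to 679 CPM in cortical bone) did not overlap. Pecam1, which platelets and leukocytes also express, had a difference of -0.29 (adjusted p = 0.585). In the replicate block fit 5 of the endothelial genes were lower. Platelet genes were lower in 8 of 10, and in 4 without mouse 4. Over all genes the lower calls also fell, from 1271 to 558 in the replicate block fit and to 825 without mouse 4.

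Blood cell transcripts were present in both tissues. The summed neutrophil list ran from 20926 to 60515 CPM (median 37869) in cartilage and from 13991 to 43380 CPM (median 22072) in cortical bone, with 3 of 14 genes higher and 0 lower (1 higher without mouse 1, mouse 3 or mouse 4). S100a8, a calcium-binding protein abundant in neutrophils, had 7973, 14059 and 27392 CPM in cartilage, against 3433, 6994 and 12191 CPM in cortical bone (1.04, adjusted p = 0.027). It missed the threshold in the replicate block fit (0.99, adjusted p = 0.228) and without mouse 1 (0.99), mouse 3 (0.93), mouse 4 (0.96) or mouse 6 (1.00). Of 11 macrophage genes tested, 2 were higher and 2 lower, beside 6.13% higher and 9.39% lower of all genes. The higher ones were Vsig4, a complement receptor of resident macrophages (3.29 ± 0.50, adjusted p = 2.8e-05), and Lyz2, lysozyme (1.33 ± 0.30, adjusted p = 0.00234). So few genes do not set the list apart from all genes. Lyz2 did not pass in the replicate block fit (1.17, adjusted p = 0.0653). For B cells and for T and natural killer cells 0 of 12 genes each passed the limma test, where the shares of all genes would give few calls. The part of residual marrow in the other differences was not tested.

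Proliferation genes were higher in cartilage in 7 of 24 and lower in 0 (median 0.48), but the count was 0 without mouse 1, 2 without mouse 3, 3 without mouse 4 and 2 in the replicate block fit. Mki67, a nuclear protein of cycling cells, had 264, 2310 and 4183 CPM in cartilage, against 154, 903 and 1220 CPM in cortical bone (1.54 ± 0.39, adjusted p = 0.00635), and without mouse 1 its difference was 1.00 (adjusted p = 0.113). Cytosolic ribosomal protein genes were higher in 13 of 28 and lower in 0 (median 0.58), Rpl10 (2.20 ± 0.38, adjusted p = 0.00013) among them. In the replicate block fit 5 of the 28 were higher, while without Rn45s in the totals 17 were.

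**Figure D4:**
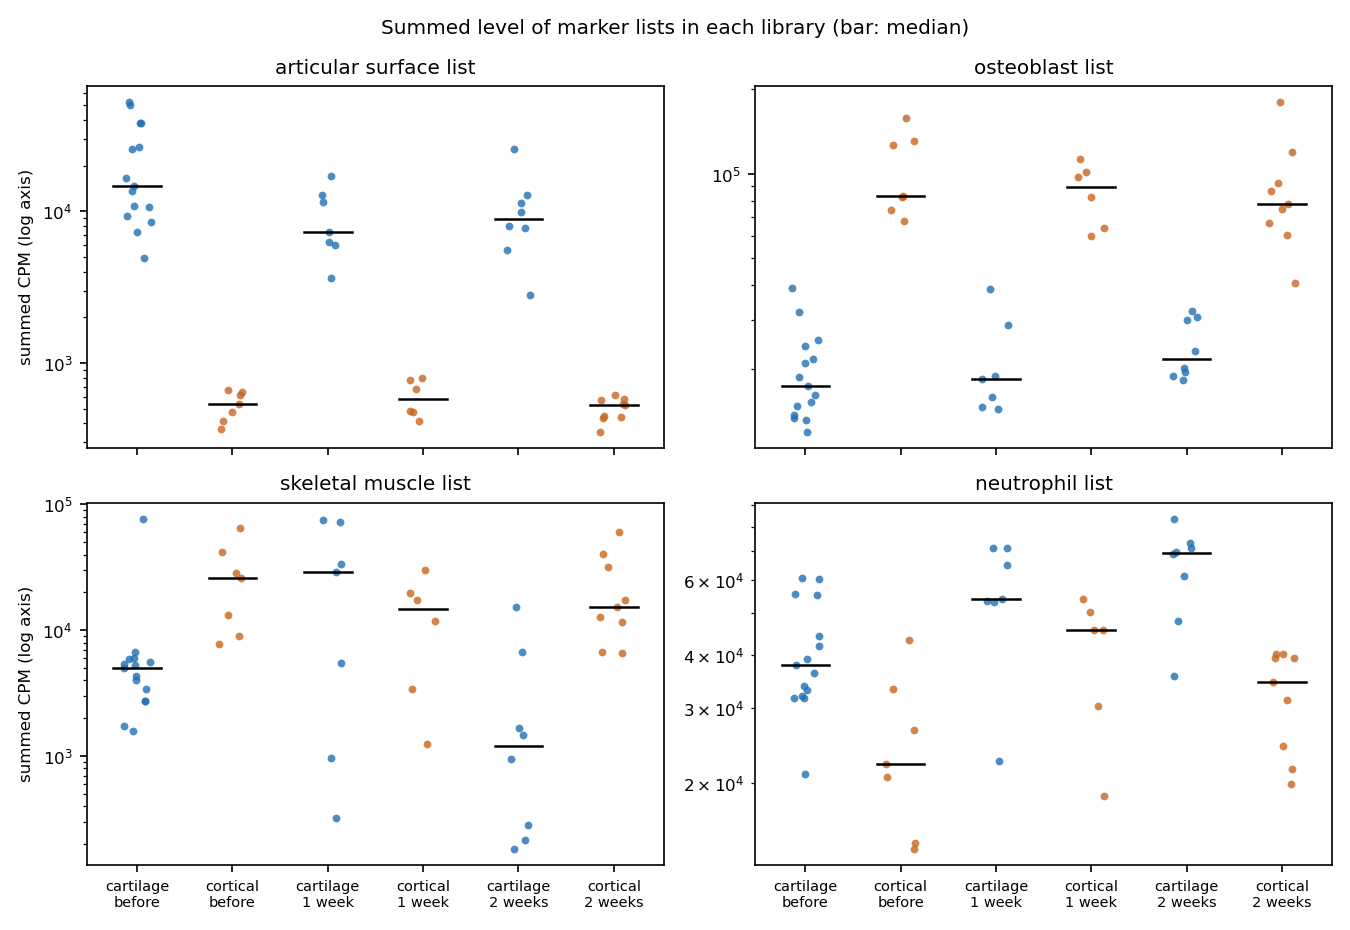
Summed CPM (log axis) of 4 marker lists in each cartilage (blue) and cortical (orange) library before loading and in contralateral limbs at 1 and 2 weeks, with a bar at the median. The articular surface and osteoblast sums keep the tissues apart in all 3 sets, whereas the muscle sums spread over 324 to 75310 CPM in cartilage at 1 week.

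Both limbs were unloaded in these mice, and the difference between tissues was not seen to depend on the limb. In the interaction of limb and tissue, limma called 0 of 13541 genes, with 386 at an unadjusted p under 0.05, and edgeR called 0, with 446. In 6 pairs, cartilage and cortical bone came from the same limb of 1 of 3 mice, as read from the sample codes, since the labels name no mice. Prg4 was higher in cartilage in 6 of 6 pairs, by 8.86 to 14.87 on the log2 scale, and Cilp by 4.57 to 8.89. The value of 14.87 is against the cortical library with 0 CPM of Prg4, so its size depends on the pseudocount. Col1a1 differed by -3.18 to -1.73 in these pairs and Mmp13 by -2.84 to -1.61. The groups of Prg4, Cilp, Col1a1 and Mmp13 did not overlap. The direction in pairs of the same libraries was therefore fixed in advance for these genes, and only the sizes are added here. Sost was higher in cartilage in 6 of 6 pairs, by 0.71 to 2.43. Col2a1 lay between -0.30 and 0.85.

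The contralateral limbs, from other mice, gave the same comparison at 27 and 28 weeks of age. By the codes, most of their libraries were pairs of both tissues from the same limb, and the fits did not pair them. At 1 week 607 of 13093 genes were higher in cartilage (4.64%) and 397 lower (3.03%), and at 2 weeks 2488 of 12947 were higher (19.2%) and 1580 lower (12.2%). Of the 830 genes higher before loading, 793 were tested at 1 week, where 74.7% had a positive difference, against 54.8% of all genes, and 799 at 2 weeks, where 89.2% had one, against 59.9% of all. Of the 1271 lower genes, 70% of the 1255 tested at 1 week were below 0, against 45.2% of all, and 87.6% of the 1245 tested at 2 weeks, against 40.1% of all. In all 3 sets, 176 genes were called higher and 171 lower. Tnfrsf11b, Sox9, Hapln1 and Ctgf, which were higher before loading, were not among those 176.

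Calls shared with the earlier set were 196 higher genes at 1 week, which is 23.6% of those before loading and 32.3% of those at 1 week, and 447 at 2 weeks, 53.9% and 18% of each list. The lower calls shared were 210 at 1 week (16.5% and 52.9%) and 664 at 2 weeks (52.2% and 42%). The opposite call was made for 3 of the higher and 9 of the lower genes at 1 week, and for 14 and 7 at 2 weeks. At 1 week 1 cortical library, replicate 1, bore on the counts, since without it 1070 genes were higher and 949 lower.

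**Figure D5:**
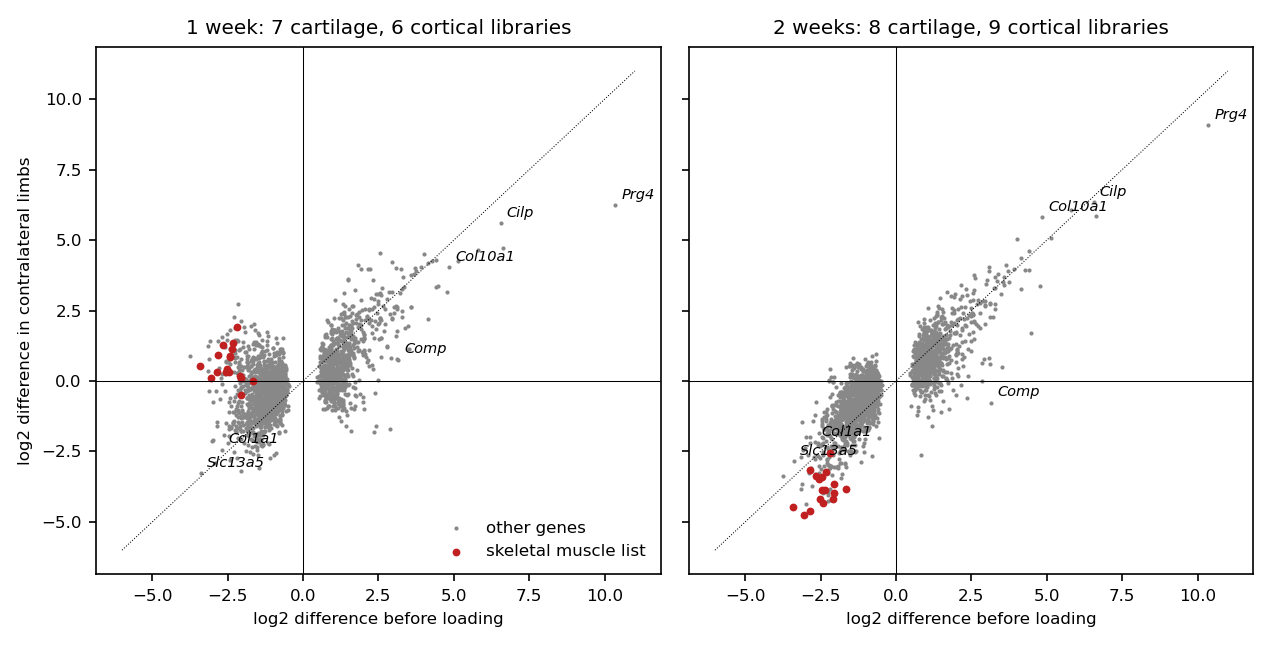
The log2 difference, cartilage minus cortical bone, of the genes called before loading (x axis) against that in contralateral limbs at 1 week (left) and 2 weeks (right, y axes), with genes of the skeletal muscle list in red and the dotted line marking equality. Prg4 reads 6.25 at 1 week and 9.09 at 2 weeks, Comp 0.76 and -0.76, and most of the muscle genes lie above 0 at 1 week and below 0 at 2 weeks.

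The genes with the largest positive differences before loading were positive again in the other mice. At 1 and 2 weeks Prg4 differed by 6.25 and 9.09, Cilp by 5.59 and 6.35, Cytl1 by 4.73 and 5.84, Clec3a by 4.65 and 6.05, and Col10a1 by 4.03 and 5.82. The articular surface list had 10 of 14 genes higher at 1 week and 9 of 13 at 2 weeks, with 0 lower in each, and 2 of the 14 lay below 0 at 1 week. The cartilage matrix list had 8 of 23 higher and 2 lower at 1 week and 11 of 23 higher and 2 lower at 2 weeks, with medians of 0.82 and 1.30. Comp did not pass the test in either set, with 0.76 (adjusted p = 0.529) at 1 week and -0.76 (adjusted p = 0.0703) at 2 weeks. Its median was 79.1 CPM in cartilage and 44.4 CPM in cortical bone at 1 week, and 51 CPM in cartilage and 63.3 CPM in cortical bone at 2 weeks. The change from the earlier difference was -2.37 ± 0.72 (adjusted p = 0.0438) at 1 week and -3.89 ± 0.67 (adjusted p = 0.00054) at 2 weeks.

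Osteoblast genes were lower in 12 of 23 at 1 week and in 15 of 23 at 2 weeks, where 1 was higher, with medians of -1.49 and -1.22. Bglap did not follow, with -0.30 (adjusted p = 0.732) at 1 week and -0.42 (adjusted p = 0.286) at 2 weeks, nor did Bglap2, with 0.18 (adjusted p = 0.877) and -0.24 (adjusted p = 0.518). Osteoclast genes were lower in 4 of 16 at 1 week and 4 of 15 at 2 weeks, where 1 was higher. Mmp13 was lower by 1.13 on the log2 scale at 1 week and had -0.45 (adjusted p = 0.109) at 2 weeks, a change from the earlier difference of 1.67 ± 0.37 (adjusted p = 0.00733). Sost had 1.23 (adjusted p = 0.137) at 1 week and 0.50 (adjusted p = 0.2) at 2 weeks.

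Skeletal muscle genes showed no call at 1 week, where the list's median was 0.40 and its summed level ran from 324 to 75310 CPM in cartilage and from 1251 to 30223 CPM in cortical bone. At 2 weeks 18 of 19 were lower, with a median of -3.85 and sums of 185 to 15398 CPM in cartilage and 6640 to 60184 CPM in cortical bone. Endothelial genes were lower in 3 of 13 at 1 week (7 without cortical replicate 1) and 8 of 13 at 2 weeks. Proliferation genes were higher in 1 of 24 at 1 week (4 without cortical replicate 1) and in 17 of 24 at 2 weeks, and Mki67 had -0.77 (adjusted p = 0.299) and 0.16 (adjusted p = 0.77). Between sets, the tissue difference changed in 688 of 14779 genes at 1 week (4.66%) and in 285 at 2 weeks (1.93%). Age, housing with a loaded limb and any library batch that goes with the deposited tables move together between these sets and cannot be told apart. The sample titles name no batch.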

How the data were processed

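Per the labels' protocols, RNA was extracted from tibial cartilage kept in RNAlater and from snap-frozen metaphyseal bone freed of marrow, and libraries were made with a 3' tag kit. The submitters' processing notes name Trimmomatic 0.39, STAR, edgeR and the mm10 genome. The deposited values are a signal, normalised counts that the authors scaled within each table. Every value was a whole multiple (within 0.01 of a read) of the smallest value of its column, so whole reads were recovered for 100% of values, and each column was rescaled to 1000000. Columns under 100000 reads were left out, as were 27 of 23412 entries that named no gene (at most 0.19% of reads).

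Genes with at least 1 CPM in as many libraries as the smaller group holds were tested with limma 3.58.1 (R 4.3.3) on log2(CPM + 1), with a trend in the variance, limb as a fixed term and mouse as a random block (estimated correlation 0.009), at a Benjamini-Hochberg adjusted p under 0.05. Mice were identified from runs of sample codes in the titles. Before loading, the shared replicate numbers of both tissues marked the same mouse under this reading. The deviations of same-numbered libraries from their tissue means had correlations of only -0.02 to 0.11. Only for number 5 was the same-numbered cortical library the closest match of the cartilage library. These values give the reading of mice no support beyond the codes. At 1 and 2 weeks most shared numbers fell in different runs of codes, so the replicate block there mostly joined libraries of different mice. Contralateral limbs of each week were fitted alone, without a block. By the codes most of these libraries formed pairs of cartilage and cortical bone from the same right limb, and the fits did not use this pairing. The change between sets was tested as an interaction. Alternatives included edgeR 4.0.16 and DESeq2 1.42.0 on the recovered reads, other scalings, filters, blocks and left-out mice. On simulated counts of 13612 genes for the comparison before loading, limma recovered 61% of 2-fold and 99% of 4-fold changes. The simulated libraries were independent, with the same dispersion for all genes and no effect of mouse, limb or admixed tissue. These shares are therefore not the sensitivity of the real comparison. Libraries of a group differed by more than sampling noise in every pair. Promoters are from RefSeq (GRCm38.p6), and gene positions from GENCODE M21.

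The comparison, its gene lists and its tests were chosen with earlier results of these data known. Genes were named by a written rule: the 15 largest differences in each direction past the threshold (mean log2(CPM + 1) of at least 5 in the higher tissue, predicted genes left out), the 15 most abundant genes of each tissue, the 6 members of smallest p in each list with the 2 of smallest p in the opposite direction, and a set of marker genes. All tests were 2-sided, and p-values measure the spread between these libraries, where both limbs of a mouse entered as separate libraries before loading.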

Additional observations from a re-analysis of the deposited data

Results flagged for a closer look

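In cortical bone before loading, 1 of the 7 libraries lay far from the others in 7 genes, by the gap to its nearest neighbour as a share of the whole range on the log2(CPM + 1) scale. The share was 0.718 for Prg4, 0.582 for Col9a1, 0.604 for Runx2, 0.699 for Dmp1, 1.000 for Mmp3, 0.653 for Adipoq and 0.577 for Hbegf. Of Prg4, 1 library held 0 CPM where the median was 16.9, and of Mmp3, 1 library held the only read. For Runx2 the lowest and highest libraries had 33.5 and 331 CPM, for Dmp1 17 and 84.1 CPM, and for Adipoq, an adipocyte hormone, 35.3 and 114 CPM. In all 56 gene groups were screened, and chance alone gives a distant library in about 1 group in 20. That rate does not cover groups at the read floor. For Mmp3 the only read fixes the share at 1.000, and for Prg4 the library at 0 CPM makes the share depend on the pseudocount.

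Among 57 genes screened, the tissue difference (cartilage minus cortical bone) of 9 changed from the limbs before loading to the contralateral limbs. The test was limma's interaction, and a call at 1 week or at 2 weeks counted. Of all genes, 4.66% were called at 1 week and 1.93% at 2 weeks. The 9 genes cannot be set against these shares, because they pool both weeks. Some screened genes, such as Prg4 and Postn, were also named for their large differences before loading. A smaller difference in other mice can follow from that selection alone. For Prg4 the change was -4.02 at 1 week (adjusted p = 0.00351), where its median was 4287 CPM in cartilage and 66 CPM in cortical bone. For Comp it was -2.37 at 1 week and -3.89 at 2 weeks, and for Mmp13 1.67 at 2 weeks. Muscle genes changed at 1 week, by 4.58 for Actn2, 3.94 for Myh2, 4.39 for Cox8b, 3.87 for Pygm and 4.54 for Srl. Postn changed by 2.14 at 1 week.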

How the results depend on the processing

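Before loading, the counts of genes higher and lower in cartilage (830 and 1271) became 440 and 558 with the replicate block in the 12 libraries of 6 shared numbers, and 402 and 595 in the same 12 libraries without it, so the block itself moved them little. Same-limb pairs gave 362 and 476, left limbs alone 442 and 609, right limbs alone, with 3 cortical libraries, 66 and 106, and keeping the library of 52539 reads gave 383 higher. Leaving out each mouse in turn gave 388 to 1140 higher and 825 to 1331 lower. With mouse within tissue as the random block (correlation 0.088) the counts were 719 and 1119, and with 1 mean per mouse and tissue 731 and 1144. The authors' values as deposited, whose tables were scaled apart, shifted the median of all genes to -0.78 and gave 234 and 7230. On that scale 10 named genes reversed, 5 of which had passed the test on the CPM scale: Actb -0.78, Alas2 -0.54, Cenpe -0.09, Cox7b -0.16, Hspd1 -0.48, Hspe1 -0.02, Slc20a1 -0.04, Slc4a1 -0.72, Timp3 -0.65 and Ube2c -0.16. At 1 week the deposited values gave 8472 and 34 (median 1.29), the replicate block 178 and 97, and DESeq2 971 lower. By the sample codes, that block at 1 week mostly joined libraries of different mice. Leaving out 1 library gave 283 to 1070 higher and 191 to 949 lower. At 2 weeks the deposited values gave 4459 and 1048, DESeq2 2595 lower, and the fit without the cortical libraries whose codes carry a letter 2442 lower. TMM scaling at 2 weeks gave 2031 higher and 2004 lower, and moved the median of all genes to 0.06.

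Of 279 named genes tested, 186 passed the threshold, and 51 of these passed it under all 27 alternatives, among them Prg4, Cilp, Cytl1, Clec3a, Acan, Comp, Col10a1, Sox5, Tnfrsf11b, Bglap, Smpd3, Creb3l1, Slc13a5, Pth1r, Mmp13, Dcstamp and Kdr. All of these alternatives refitted the libraries taken before loading. Comp, Tnfrsf11b, Bglap and Mmp13 were not called in both sets of contralateral limbs. Precision is limited by the 4 mice behind cortical bone and, for genes of a few CPM, by libraries of 636661 reads upwards, in which a few reads decide a value.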

Other observations

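Cancellous bone of the same metaphysis, another bone compartment taken before loading (7 libraries), gives another set of levels, placed beside the others without a test. Prg4 ran from 0 to 161 CPM there (median 8.3), Cilp from 0 to 7.83 CPM (median 1.51) and Tnfrsf11b from 0 to 5.49 CPM (median 3.01). Their cortical ranges were 0 to 22.3, 5.79 to 33.5 and 0.696 to 6.5 CPM. Comp, Cytl1 and Acan reached 182, 238 and 40.6 CPM in single cancellous libraries, with medians of 44.8, 41.4 and 10.1 CPM. The bone genes Col1a1 (median 29687 CPM), Ibsp (4197 CPM), Bglap (389 CPM) and Slc13a5 (56.7 CPM) lay near their cortical medians. Acta1 had a median of 442 CPM, against 231 CPM in cartilage and 1678 CPM in cortical bone. Sost had 13.4, 36.8 and 47 CPM as its lowest, median and highest values in cancellous bone, and its cartilage median of 109 CPM lay above all of them.

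Genes of mitochondrial respiration were higher in cartilage in 5 of 30 before loading and lower in 3 (median 0.04), with 0 higher without mouse 4. At 1 week 17 of 30 were higher and 0 lower (median 0.92), and at 2 weeks 5 were higher and 2 lower (median 0.27). The adipocyte list was higher in 2 of 13 genes (0 without mouse 1 or mouse 4) and lower in 1 before loading. It was higher in 5 of 13 at 1 week and 7 of 13 at 2 weeks, with 0 lower in each. Of all genes tested, 6.13%, 4.64% and 19.2% were higher in the 3 sets, and 9.39%, 3.03% and 12.2% were lower. Tendon and ligament genes were higher in 4 of 10 genes and lower in 1 before loading, with sums of 1168 to 10167 CPM in cartilage and 1500 to 2520 CPM in cortical bone.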
